A study of Mus musculus with 8 samples.

Results

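The late neutrophil granule genes examined here were Ltf, Camp, Ngp, Lcn2, Mmp8, Mmp9, S100a8, S100a9 and Fcnb, 9 of the 21883 protein-coding loci measured. The list was chosen by function, with earlier results of these data known, among them the F-Seq peak calls at Fcnb in C18. The other members were therefore not chosen blind either. A locus was the gene body with 10 kb on each side. Peaks over these loci were read from 8 ATAC-seq libraries, an assay in which a transposase cuts accessible chromatin. The libraries came from 4 populations of wild-type C57BL/6 mouse bone marrow cells, all KIT+ and CD16/32-, with 2 libraries each. C2 cells were CD34bright CD41+ CD9+, and C13 cells were CD34dim CD41- CD9-. C10 cells were CD34dim CD41+ CD9+ CD48bright, and C18 cells were the same but CD48dim. The labels give no age or sex, and do not state if the paired libraries represent different mice. The p-values below therefore measure the spread between libraries, which may be technical. The series text lists partly other cluster names (C10, C11, C17 and C3) than the library titles used here.

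Neutrophils build their granules in order. Primary (azurophil) granules form first, in promyelocytes, with myeloperoxidase and elastase. Specific granules follow in myelocytes and carry lactoferrin and cathelicidin, and gelatinase granules form last. The genes of the later granules depend on C/EBP transcription factors, among them C/EBP epsilon, and their products are abundant in maturing neutrophils rather than in the immature KIT+ cells sorted here. S100a8 and S100a9 encode the calprotectin subunits, which lie in the cytosol rather than in granules but are made at the same late stages.

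The deposited data were peak lists without read counts, so the sequencing depth is unknown. Each F-Seq list held exactly 100000 peaks, so a locus without an F-Seq peak lay below the 100000 strongest of that library and was not shown to be closed. The HOMER lists held 171712 and 196264 peaks in C2, 252844 and 249132 in C13, 235812 and 260118 in C10, and 72379 and 83548 in C18. An F-Seq peak overlapped a HOMER peak in 71.1% and 80.8% of cases in C2, 94.4% and 93.6% in C13, 90.0% and 94.1% in C10, and 42.4% and 42.0% in C18. The HOMER lists of C2 and C18 were ordered by position, and those of C13 and C10 by falling score. This difference in layout falls along the same line as the pattern of start windows below, and the populations and the handling of their files cannot be told apart. Megakaryocyte marker loci, which the CD41 and CD9 gates bear on, summed to 62.0 and 53.3 kb under peaks in C2, 34.7 and 37.0 kb in C13, 62.4 and 58.9 kb in C10, and 59.9 and 68.8 kb in C18.

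The region at the start of a gene was examined first. RefSeq windows of 300 bases, running from 250 before the start site to 50 after it (GRCm38.p6, the assembly of the mm10 build named by the submitters), matched 8 of the 9 genes, all but Mmp9. The windows printed here are the 6 that held no F-Seq peak in any C13 or C10 library, followed by that of Mmp8, which held one in every library. Capitals mark matches to a C/EBP motif (TTGCNNAA) and an ETS and PU.1 motif (GAGGAA) on either strand, and each sequence reads 5′ to 3′ in the direction of the gene.
Camp: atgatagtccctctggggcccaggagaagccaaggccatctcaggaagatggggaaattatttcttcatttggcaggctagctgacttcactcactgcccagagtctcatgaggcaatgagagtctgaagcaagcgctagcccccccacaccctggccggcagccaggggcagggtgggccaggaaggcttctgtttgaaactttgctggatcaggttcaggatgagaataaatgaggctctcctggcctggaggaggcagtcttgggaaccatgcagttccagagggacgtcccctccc
Ngp: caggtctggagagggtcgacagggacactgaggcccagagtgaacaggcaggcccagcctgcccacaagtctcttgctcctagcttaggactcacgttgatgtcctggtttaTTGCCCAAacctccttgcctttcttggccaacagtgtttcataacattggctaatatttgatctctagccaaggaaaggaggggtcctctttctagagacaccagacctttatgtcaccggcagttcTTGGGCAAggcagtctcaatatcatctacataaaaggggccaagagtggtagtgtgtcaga
Lcn2: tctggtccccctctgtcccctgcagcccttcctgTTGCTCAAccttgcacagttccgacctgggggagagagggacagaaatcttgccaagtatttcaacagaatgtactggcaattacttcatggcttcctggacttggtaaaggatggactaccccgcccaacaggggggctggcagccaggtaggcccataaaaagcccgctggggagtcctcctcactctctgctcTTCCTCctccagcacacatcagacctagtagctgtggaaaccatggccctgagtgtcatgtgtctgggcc
S100a8: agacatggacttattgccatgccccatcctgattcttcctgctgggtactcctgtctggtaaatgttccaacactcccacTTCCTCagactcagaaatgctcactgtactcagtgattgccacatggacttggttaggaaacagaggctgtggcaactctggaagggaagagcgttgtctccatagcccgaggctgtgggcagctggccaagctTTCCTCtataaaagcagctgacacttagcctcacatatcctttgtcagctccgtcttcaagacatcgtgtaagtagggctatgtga
S100a9: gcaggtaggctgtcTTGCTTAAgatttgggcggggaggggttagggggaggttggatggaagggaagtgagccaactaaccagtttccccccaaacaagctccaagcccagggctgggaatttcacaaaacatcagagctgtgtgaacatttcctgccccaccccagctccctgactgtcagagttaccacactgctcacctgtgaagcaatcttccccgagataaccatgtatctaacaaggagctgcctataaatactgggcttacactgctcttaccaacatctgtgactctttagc
Fcnb: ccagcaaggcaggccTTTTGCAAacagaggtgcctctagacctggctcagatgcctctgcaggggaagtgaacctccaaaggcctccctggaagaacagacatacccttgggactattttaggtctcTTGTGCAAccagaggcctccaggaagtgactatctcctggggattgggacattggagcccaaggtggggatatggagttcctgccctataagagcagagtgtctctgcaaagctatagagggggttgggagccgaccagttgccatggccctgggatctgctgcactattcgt
Mmp8: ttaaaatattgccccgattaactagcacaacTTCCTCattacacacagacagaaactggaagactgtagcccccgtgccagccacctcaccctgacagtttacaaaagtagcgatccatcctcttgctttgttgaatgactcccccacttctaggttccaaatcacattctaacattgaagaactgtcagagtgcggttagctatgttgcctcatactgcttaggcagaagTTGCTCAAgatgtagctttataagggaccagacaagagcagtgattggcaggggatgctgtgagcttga

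The windows lie at chr9:109849407-109849706, minus strand (Camp), chr9:110419558-110419857, plus strand (Ngp), chr2:32387690-32387989, minus strand (Lcn2), chr3:90668821-90669120, plus strand (S100a8), chr3:90695672-90695971, minus strand (S100a9), chr2:28084829-28085128, minus strand (Fcnb) and chr9:7558179-7558478, plus strand (Mmp8). The C/EBP letters occurred in 6 of the 8 member windows, those of Ltf, Ngp, Lcn2, Mmp8, S100a9 and Fcnb, against 10.2% of 21262 windows of all protein-coding genes. Ngp and Fcnb each held 2 matches. The ETS and PU.1 letters occurred in 4 of 8 windows (Ltf, Lcn2, Mmp8 and S100a8), against 27.4% of all windows, and S100a8 held 2 matches. The GATA letters AGATAA occurred in 2 of 8 windows (Ltf and S100a9), against 9.65% of all windows. The RUNX letters TGTGGT occurred in 2 of 8 (Ltf and S100a9), against 14.97%. The GFI1 letters AAATCA occurred in 2 of 8 (Ltf and Mmp8), against 12.4%. No match overlapped one of another motif. A match is a description of letters and not a bound site.

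The start windows of Camp, Lcn2, S100a8 and S100a9 held an F-Seq peak in both C2 and both C18 libraries and in no C13 or C10 library. Camp encodes the cathelicidin antimicrobial peptide, and Lcn2 encodes lipocalin 2, which binds bacterial siderophores. Of the 8 member windows 4 carried this pattern, and over all genes 13 of 21262 windows did (0.0611%). The pattern was defined after the member calls had been seen, so the counts are a description and support no test. The other 9 windows, singled out after their values were seen, were those of Igf2r, Ivl, Kctd20, Mcemp1, Mcpt8, Mgst2, Ms4a3, Pfdn2 and Plcb3. Ms4a3 marks granulocyte and monocyte progenitors, and Mcpt8 is a protease of basophils. The opposite pattern, a peak in both C13 and both C10 libraries and none in C2 or C18, was found in 0 of 8 member windows and 0.273% of all windows.

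**Figure D1:**
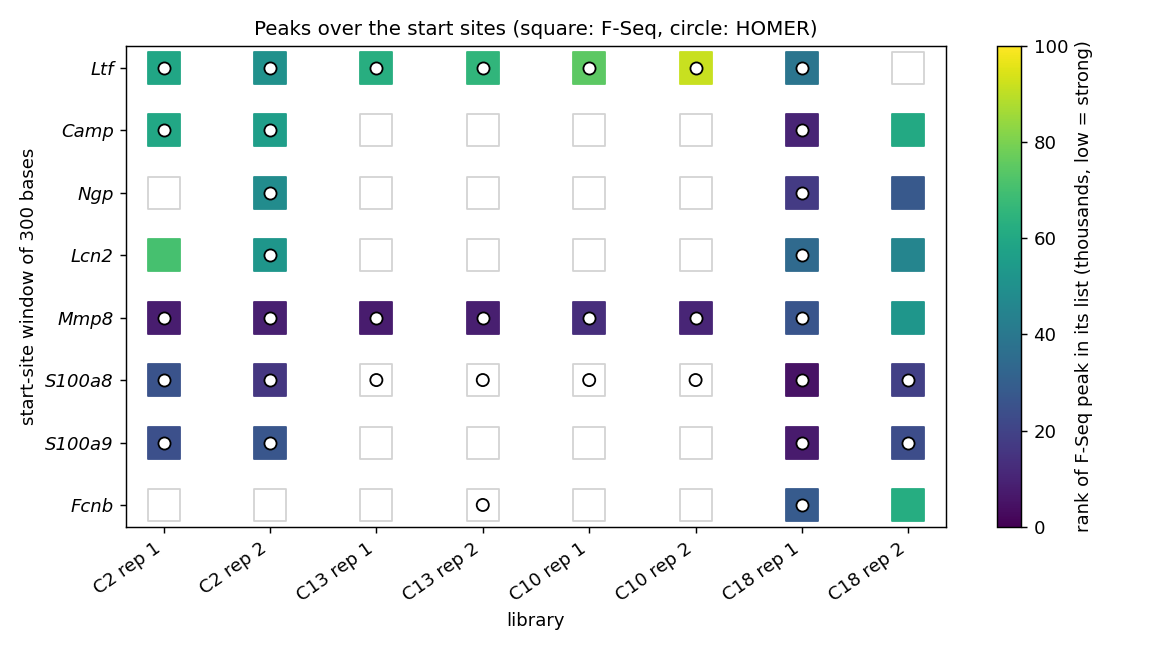
Start windows of the 8 members that have one (rows) in the 8 libraries (columns, ordered C2, C13, C10, C18), with the call of an F-Seq or a HOMER peak in each. Camp, Lcn2, S100a8 and S100a9 have F-Seq peaks in the C2 and C18 libraries and none in the C13 and C10 libraries, whereas Mmp8 has one in all 8.

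The S100a8 peak ranked highest of these in 3 of the 4 libraries, all but C2 replicate 1. It had ranks 25723 and 15741 of 100000 in C2 and 4735 and 19044 in C18, where rank 1 is the highest signal. The S100a9 peak had ranks 24378 and 26574 in C2 and 7352 and 23392 in C18. The Camp peak had ranks 59691 and 55769 in C2 and 9949 and 60316 in C18. The Lcn2 peak had ranks 70500 and 52513 in C2 and 34135 and 45376 in C18, so it lay in the weaker part of the C2 lists. Peaks thus ranked higher in C18 replicate 1 than in C18 replicate 2 at all 4 windows. Counting only the 50000 strongest peaks of each library, S100a8 and S100a9 kept the pattern, among 172 windows in all (0.809%), and the other two genes did not.

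Ngp, a cystatin-related protein of specific granules, had an F-Seq peak in its window in C2 replicate 2 (rank 48178) and in both C18 libraries (17359 and 27492). No peak was called there in C2 replicate 1, C13 or C10. The Fcnb window held a peak in the C18 libraries alone (ranks 28350 and 61832). Fcnb encodes ficolin B, a lectin of the complement system, and its C18 peaks were known when the genes were chosen, so this is given as a description. Of all windows, 0.141% had a peak in both C18 libraries and no other. Mmp8, the neutrophil collagenase, had a peak in its window in all 8 libraries, as 50.5% of windows did, with ranks 8048 and 8882 in C2, 7623 and 8457 in C13, 13135 and 10179 in C10, and 26296 and 52379 in C18. Its peak ranked lowest in C18, the population in which Camp, Ngp and Lcn2 had their best rank. Ltf, lactoferrin, had a window peak in 7 libraries, all but C18 replicate 2, at ranks of 39039 to 91467.

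In all, 6 of 8 member windows had no F-Seq peak in C13 or C10, as did 35.9% of all windows. These 6 had a peak in at least 1 C2 or C18 library, a combination found in 3.28% of all windows. A peak in at least 1 C13 or C10 library and none in C2 or C18 was found in 0 of 8 members and 2.5% of all windows. The number of member windows with an F-Seq peak was 6 and 7 of 8 in C2, 2 and 2 in C13, 2 and 2 in C10, and 8 and 7 in C18. These patterns were also defined after the member calls had been seen, and the Fcnb peaks in C18 were known beforehand. The counts, and the HOMER counts below, are therefore a description and support no test. Over all genes, the share of windows with a peak was 58.7% and 60.5% in C2, 60.8% and 60.9% in C13, 60.1% and 60.0% in C10, and 55.8% and 57.4% in C18, so it was lowest in C18. Start windows of 14 housekeeping genes held a peak in 13 or 14 cases in every library. Since the libraries are of many cells each, more cells with an open site and a more open site per cell cannot be told apart.

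The HOMER lists gave a weaker form of the pattern. S100a9 alone had HOMER peaks in both C2 and both C18 libraries and in no C13 or C10 library, as did 0.0188% of all windows. Camp, Lcn2, Ngp and S100a9, 4 of 8, had a HOMER peak in at least 1 C2 or C18 library and none in C13 or C10, against 1.09% of all windows. The S100a8 window held HOMER peaks in all 8 libraries, as 42% of windows did, including the 4 of C13 and C10 that lacked an F-Seq peak there. The Fcnb window held them in C13 replicate 2 and C18 replicate 1. In C18 replicate 2 the HOMER list covered only 2 of the 8 member windows, S100a8 and S100a9, against 7 by F-Seq.

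Across the whole loci, overlapping F-Seq peaks of the 8 libraries merged into 69 regions, of which 13 were called in all 8 libraries and 23 in a single library. Of these 23, 12 belonged to C18 replicate 1, 5 to C2 replicate 2, 4 to C18 replicate 2 and 1 each to the C13 libraries. The number of regions called was 30 and 38 in C2, 26 and 25 in C13, 20 and 22 in C10, and 50 and 31 in C18. Regions called in both libraries of 1 population and in no library of the others numbered 1 in C2, 2 in C13, 0 in C10 and 5 in C18. Over the whole genome such regions made up 0.512% of 207739 merged regions in C2, 4.7% in C13, 0.987% in C10 and 1.41% in C18. 4 of the C18 regions lay at Fcnb, whose C18 peaks were known beforehand, and 1 lay 6.3 to 6.8 kb past the S100a8 start site. With the HOMER lists the counts at the members were 0 in C2, 14 in C13, 1 in C10 and 1 in C18, so C13 and not C18 held most of them. The HOMER shares over the genome were 0.407% in C2, 8.19% in C13, 2.42% in C10 and 0.156% in C18.

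**Figure D2:**
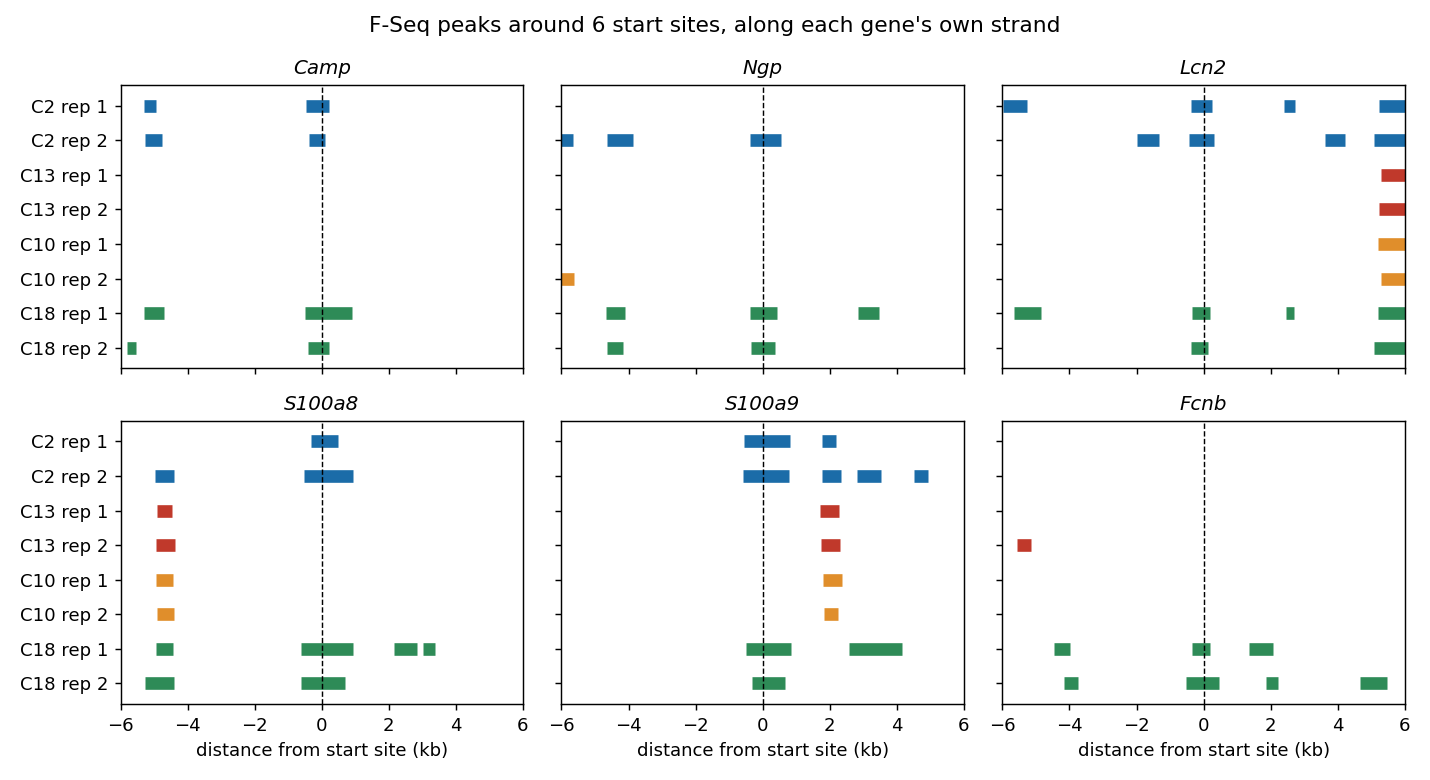
F-Seq peaks around the start sites of Camp, Ngp, Lcn2, S100a8, S100a9 and Fcnb in each library, with distance from the start site in kb on the horizontal axis. Camp has peaks in the C2 and C18 libraries alone.

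Several constant regions lay at neighbouring genes. The 2 regions of the Lcn2 locus called in all 8 libraries covered the start windows of 1110008P14Rik and Ptges2, and Ciz1 also reaches into this locus. The Mmp8 locus held 4 regions called in all 8 libraries, 1 of them over the start window of Mmp27. The Mmp9 locus reached into Slc12a5, the Camp locus into Nme6 and the Ngp locus into Klhl18. The loci of Ltf, S100a8, S100a9 and Fcnb contained no other protein-coding gene. The 3 regions of the Camp locus were called in C2 and C18 libraries only. At Ngp, the constant region lay 7.2 to 8.9 kb before the start site, at ranks of 13137 to 23434.

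The loci were then compared by the kb under F-Seq peaks, scaled to the same total peak length in each library. The scale factor was 1.43 and 1.13 in C18 and between 0.885 and 1.00 in the other libraries. S100a8 had 2.05 and 3.43 kb in C2, 0.410 and 0.501 kb in C13, 0.484 and 0.473 kb in C10, and 7.73 and 2.95 kb in C18. S100a9 had 2.48 and 3.76 kb in C2, 1.17 and 1.22 kb in C13, 0.908 and 0.945 kb in C10, and 5.94 and 1.58 kb in C18. For both calprotectin loci every C2 and C18 library lay above every C13 and C10 library, and C18 replicate 1 stood far above replicate 2. Camp had 1.06 and 0.940 kb in C2 and 2.83 and 1.02 kb in C18, and was listed at 0 in all 4 libraries of C13 and C10. Lcn2 had 5.63 and 5.51 kb in C2, 3.28 and 3.46 kb in C13, 3.20 and 2.74 kb in C10, and 7.13 and 4.86 kb in C18. The Camp and Lcn2 libraries of C2 and C18 likewise all lay above those of C13 and C10. Here and below, the share of all loci with such an order was not counted, and the summed housekeeping loci showed it too. Before scaling, S100a9 had 1.40 kb in C18 replicate 2, close to 1.38 kb in C13 replicate 2.

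Ngp had 0.973 and 2.75 kb in C2, 1.15 and 1.43 kb in C13, 0.647 and 1.27 kb in C10, and 4.22 and 1.95 kb in C18. Its C18 libraries lay above those of C13 and C10, while of the C2 pair only replicate 2 did. Ltf had 3.08 and 2.22 kb in C2, 5.52 and 5.31 kb in C13, 2.42 and 3.08 kb in C10, and 2.72 and 1.89 kb in C18. Ltf was thus highest in C13, with no overlap, and did not share the order of S100a8 or Camp. Mmp8 had 6.88 and 7.80 kb in C2, 6.41 and 5.73 kb in C13, 7.46 and 6.79 kb in C10, and 6.21 and 5.71 kb in C18, an even level. Mmp9, gelatinase B of the gelatinase granules, had 3.13 and 6.72 kb in C2, 5.49 and 6.50 kb in C13, 3.13 and 4.72 kb in C10, and 9.50 and 3.11 kb in C18. The C18 pair of Mmp9 held both the highest and the lowest of the 8 scaled values, the lowest being close to replicate 1 of C2 and of C10. Before scaling, C18 replicate 1 had 6.66 kb, below C13 replicate 2 with 7.34 kb and C2 replicate 2 with 6.835 kb. Fcnb had 1.67 and 1.71 kb in C2, 1.91 and 2.25 kb in C13, 1.54 and 1.66 kb in C10, and 7.26 and 7.34 kb in C18, so its C18 libraries agreed closely and stood apart.

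**Figure D3:**
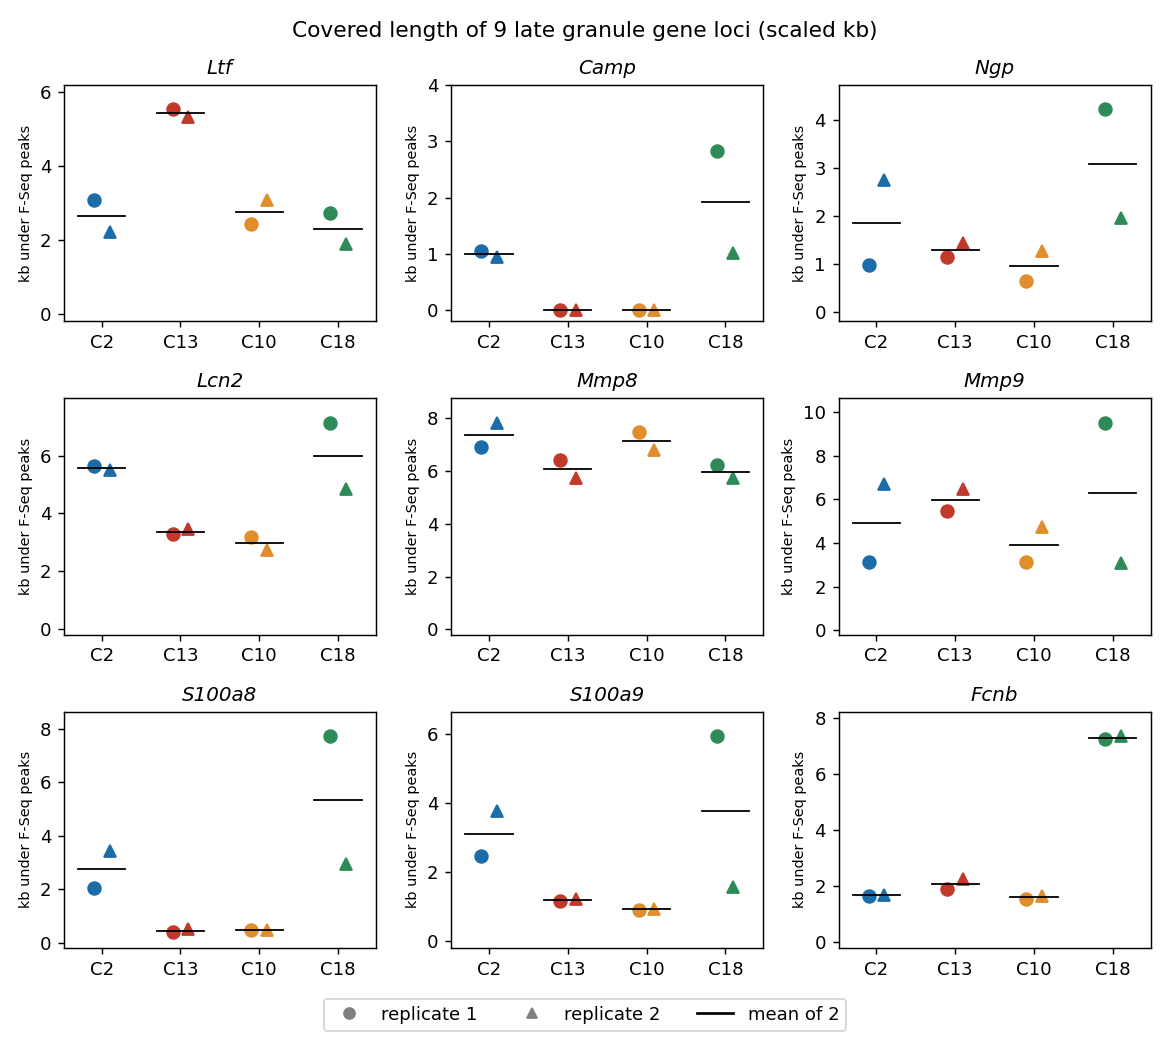
Scaled kb under F-Seq peaks at each of the 9 loci, 1 point per library, with populations in the order C2, C13, C10, C18. S100a8, S100a9, Camp and Lcn2 are higher in the C2 and C18 libraries, Ltf is highest in C13, Fcnb in C18, and Mmp8 is even.

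C10 was compared with C18, which differ in CD48 among CD34dim CD41+ CD9+ cells. Camp, Lcn2 and S100a8 were lower in C10, which makes 3 of the 8 members tested, against 14.2% of 18454 loci tested across the genome. None of the 8 was higher, against 7.92% of loci. S100a8 fell by 2.88 on the log2 scale (SE 0.458, limma adjusted p = 0.0111), with 200 bases added to each value. Lcn2 fell by 0.95 (SE 0.204, limma adjusted p = 0.0214). Camp was listed at 0 in C13 and C10, so it passed the filter through its C2 and C18 libraries alone. Its place among the 3 is therefore a description, and no fold or p-value is given for it. S100a9 differed by -1.55 (SE 0.535, limma adjusted p = 0.0759) and Ngp by -1.46 (SE 0.543, limma adjusted p = 0.0925), and neither passed the test. Mmp9 (-0.49, adjusted p = 0.529), Ltf (0.25, adjusted p = 0.489) and Mmp8 (0.25, adjusted p = 0.216) in the same limma fit did not pass either. The difference at Fcnb was -2.06 (SE 0.185), given without a test. The median difference of the 8 members was -1.20, beside -0.15 for all loci. Leaving out either C10 library removed these 3 calls, with 0 loci called in all without C10 replicate 1 and 416 without C10 replicate 2, against 4085 with all libraries. Lcn2 also just missed the threshold when either C13 library was left out (limma adjusted p = 0.0502). With either C18 library left out, S100a8, Camp and Lcn2 were still called, but the sizes moved. S100a8 differed by -2.21 without C18 replicate 1 and by -3.55 without replicate 2. S100a9 differed by -0.66 without C18 replicate 1, and by -2.45 without replicate 2, where it was called (limma adjusted p = 0.00820).

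Levels of other loci moved with this contrast. The summed level at 18 housekeeping loci was 120.4 and 98.1 kb in C2, 85.1 and 85.5 kb in C13, 86.6 and 77.1 kb in C10, and 104.7 and 119.5 kb in C18. In C10 against C18, 4 of these 18 were lower, against 14.2% of all loci, and 0 higher, against 7.92%. Their median was -0.46. The part of this shift in the members' differences was not tested. Relative to the median of all loci, S100a8 differed by -2.73 and Lcn2 by -0.80. Without the scaling of peak lengths 3487 loci were higher and 503 lower in C10, with a median of 0.27 over all loci, against 1461 higher and 2624 lower with it. On that unscaled basis S100a8 (-2.47) and Camp remained lower past the threshold, Lcn2 (-0.50, limma adjusted p = 0.0717) did not, and Mmp8 was called higher (0.70, limma adjusted p = 0.0201). With the HOMER lists, also scaled, S100a8 (-1.72), Lcn2 (-1.51) and S100a9 (-1.58) were called lower in C10. Camp was not, and Mmp8 had the opposite sign (-0.48). HOMER peaks covered 31.9 and 35.8 Mb in C10 and 9.95 and 11.3 Mb in C18. Scaling to equal totals thus raised the C18 values against those of C10. By number of HOMER peaks, Lcn2 had 10 and 8 in C10 and 9 and 9 in C18. S100a8 had 2 and 5 in C10 and 5 and 4 in C18, and S100a9 had 5 and 3 in C10 and 9 and 3 in C18. The part of the scaling in these HOMER calls was not tested.

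C13 was compared with the mean of C10 and C18, that is CD41- CD9- with CD41+ CD9+ cells among CD34dim cells. Ltf was higher in C13, by 1.06 on the log2 scale (SE 0.217, limma adjusted p = 0.0340), making 1 of 8 members higher, against 3.11% of all loci, and 0 of 8 lower, against 3.74%. S100a8 missed the threshold at -1.49 (SE 0.396, limma adjusted p = 0.0681). Camp, at 0 in C13 and C10, was not called either, and no p-value is given for it. The other 5 lay between -0.47 and 0.37. The median of the 8 was -0.31, beside -0.06 for all loci. The call for Ltf was kept in 8 of 20 alternative settings, with adjusted p between 0.0144 and 0.290, and was lost when either C13 or either C10 library was left out. In other settings another member was called in its place and lower in C13: Lcn2 with the HOMER lists, S100a8 with the 50000 strongest peaks or the peaks of both callers, and Camp by the number of peaks. Camp had 2 F-Seq peaks in each C2 and C18 library and 0 in each C13 and C10 library. Its peak numbers thus had no spread within a population, and that call is a description. Without the scaling of peak lengths 1378 loci were higher and 269 lower in C13, against 574 higher and 691 lower with it.

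Most of the additional bases at Ltf lay in the gene body. The gene body held 0.242 and 0.391 kb in C2, 2.14 and 1.93 kb in C13, 0.0709 and 0.422 kb in C10, and 0.663 and 0 kb in C18. The flank past the gene held 1.79 and 1.43 kb in C2, 1.99 and 2.11 kb in C13, 1.20 and 1.75 kb in C10, and 1.04 and 1.22 kb in C18, so it too was highest in C13. The flank before the gene held 1.05 and 0.396 kb in C2, 1.39 and 1.27 kb in C13, 1.15 and 0.913 kb in C10, and 1.01 and 0.670 kb in C18. 3 regions inside the gene body, at chr9:111033585-111034362, chr9:111035397-111036138 and chr9:111038251-111038813 (mm10), were called in both C13 libraries, and the second of them also in C10 replicate 2 at rank 99834. They lay 14.3 to 19.5 kb after the start site, and exons and introns were not told apart here. A region at chr9:111009341-111010285, in the outermost part of the flank before the start site, had ranks 14967 and 14207 in C13, 77390 and 58667 in C10, and 77922 in C2 replicate 1. The strongest region of the locus, chr9:111045431-111047876, past the end of the gene, was called in all 8 libraries at ranks of 2306 to 9269. The Ltf start window itself had similar ranks in C13 (62795 and 65288) and in C2 (59322 and 50134).

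C2 was compared with the mean of C10 and C18, CD34bright with CD34dim cells, and this comparison shares C10 and C18 with the one before. No member was called, and no locus of 18454 passed in either direction (0%), although 3068 loci and 1 member, Camp, had an unadjusted limma p under 0.05. All 8 differences of the tested members were positive, between 0.0032 and 0.95, with a median of 0.28, beside 0.06 for all loci. Of all loci, 43.2% had a negative difference. Mmp9 (0.0032) and Ngp (0.0042) lay below the median of all loci, and changed sign in 9 and 10 of 20 alternative settings. S100a9 differed by 0.75 (SE 0.463, limma adjusted p = 0.463) and S100a8 by 0.63 (SE 0.396, limma adjusted p = 0.471). The mean of C10 and C18 pools unlike S100a8 levels, and the mean of the C2 libraries lay between those of C10 and C18. Fcnb, untested, differed by -0.96 (SE 0.160).

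**Figure D4:**
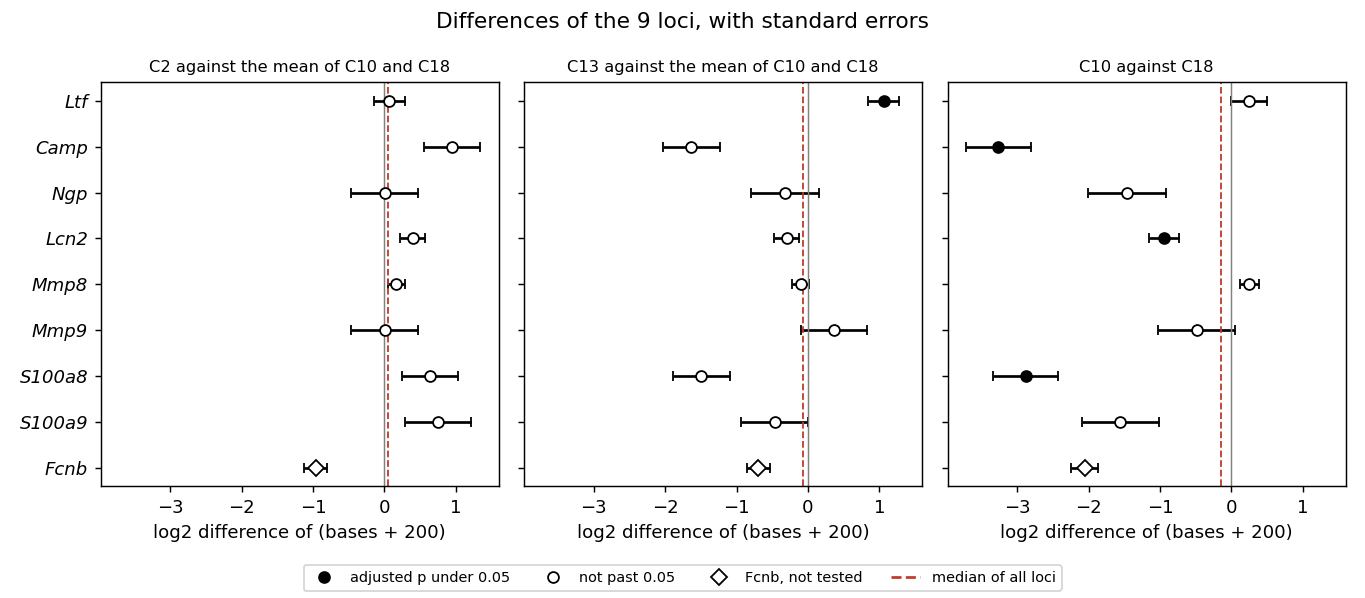
Fitted log2 differences with their SE for each member in 3 contrasts: C2 and C13, each set against the average of C10 and C18, and C10 against C18. Camp, Lcn2 and S100a8 pass the threshold in C10 against C18, Ltf passes in C13, and no member passes in C2. Camp, listed at 0 in C13 and C10, is given as a description.

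With the C18 libraries left out, C2 was set against C10 alone. Here 4 of 8 members were higher in C2, Camp, Lcn2, S100a8 and S100a9, against 5.58% of 18193 loci, and 0 of 8 were lower, against 2.36%. S100a8 differed by 2.07 (SE 0.287, limma adjusted p = 0.0312), S100a9 by 1.53 (SE 0.236, limma adjusted p = 0.0314) and Lcn2 by 0.87 (SE 0.134, limma adjusted p = 0.0314). Camp was listed at 0 in C13 and C10, so it passed the filter of this fit through its C2 libraries alone. Its place among the 4 is therefore a description, and no p-value is given for it. Camp, Lcn2, S100a8 and S100a9 are the genes whose start windows had F-Seq peaks in C2 and C18 and not in C10. Those peaks are part of the bases compared here, so the match is built in and is no separate support. With the HOMER lists, an alternative added after the data were seen, none of 18660 loci was called in this comparison, and S100a8 differed by 0.94 (SE 0.259, limma adjusted p = 0.114).

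The genes of other neutrophil granules and the factors that act on them were read beside the members. Of 28 other late granule and secretory vesicle genes tested, 3 were higher in C13, against 3.11% of all loci, and 0 lower, against 3.74%. In C10 against C18, 2 were higher, against 7.92% of all loci, and 5 lower, against 14.2%, so these counts lay near the shares of all loci. As for all loci, 0 were called in C2. The 3 called in C13 were Cybb and Itgam, a subunit of the NADPH oxidase and the CD11b integrin, and Ly6g. Ly6g had 0.765 and 0.694 kb in C13, 0.340 kb in C18 replicate 2 and 0 in every other library. Its values lie near the floor, so its call is a description. Cybb had 2.40 and 1.94 kb in C2, 6.94 and 7.05 kb in C13, 1.62 and 2.68 kb in C10, and 2.21 and 0.907 kb in C18 (1.89, SE 0.341, limma adjusted p = 0.0254). Chil3, a chitinase-like protein of neutrophils and macrophages, was listed at 0 in C13 and C10, with 1.14 and 4.08 kb in C2 and 3.89 and 1.62 kb in C18. Like Camp, Chil3 passed the filter through C2 and C18 alone, so its place among the 5 lower in C10 is a description. Hp, haptoglobin, was also lower in C10 (-1.06, SE 0.248, limma adjusted p = 0.0263), whereas Fpr1, a formyl peptide receptor, was higher (1.38, SE 0.378, limma adjusted p = 0.0415).

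Of 10 primary granule genes, 1 was lower in C10 than in C18, against 14.2% of all loci. In C13, 2 were lower, against 3.74% of all loci, and none was called in C2. Mpo, myeloperoxidase, had 17.2 and 16.0 kb in C2, 2.98 and 3.28 kb in C13, 4.09 and 5.07 kb in C10, and 21.2 and 8.37 kb in C18 (C10 against C18: -1.51, SE 0.376, limma adjusted p = 0.0315). Every C2 and C18 library lay above every C13 and C10 library. Ms4a3 had 3.32 and 3.30 kb in C2, 0.527 and 0.470 kb in C13, 2.78 and 3.56 kb in C10, and 2.14 and 2.76 kb in C18, and was lower in C13 (-2.09, SE 0.203, limma adjusted p = 0.00710). Of 11 granulocyte transcription factors, 1 was higher in C13, Irf8 (1.98, SE 0.445, limma adjusted p = 0.0446), against 3.11% of all loci. In C10 against C18, 3 were lower, against 14.2% of all loci. The 3 were Cebpb (-0.999, SE 0.143, limma adjusted p = 0.00939), Runx1 (-0.87, SE 0.156, limma adjusted p = 0.0141) and Cebpe (-0.98, SE 0.252, limma adjusted p = 0.0351). Cebpe, the factor required for specific granules, had 7.07 and 6.99 kb in C2, 3.32 and 3.96 kb in C13, 4.19 and 3.39 kb in C10, and 9.92 and 5.84 kb in C18.

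Marker lists of other cell types differed in whether they followed the members. Progenitor loci did, with sums of 146.6 and 134.0 kb in C2, 83.1 and 88.2 kb in C13, 83.5 and 100.4 kb in C10, and 114.8 and 119.8 kb in C18. This was not particular to them. Sums of the housekeeping and granulocyte transcription factor loci were also higher in every C2 and C18 library than in every C13 and C10 library. Erythroid loci summed to 49.4 and 50.1 kb in C2, 34.4 and 34.9 kb in C13, 49.4 and 52.8 kb in C10, and 57.1 and 74.2 kb in C18. Of these, 6 of 11 were lower in C13, against 3.74% of all loci. Lymphoid loci were highest in C13, like Ltf, with 62.6 and 51.5 kb in C2, 78.3 and 83.7 kb in C13, 54.4 and 58.2 kb in C10, and 42.5 and 40.3 kb in C18. Of these, 3 of 10 were called higher in C13, against 3.11% of all loci. Macrophage loci summed to 25.2 and 27.3 kb in C2, 37.0 and 37.8 kb in C13, 24.7 and 26.6 kb in C10, and 24.9 and 18.8 kb in C18. Of these, 2 of 10 were higher in C13, where Ltf was also highest, against 3.11% of all loci. Mast cell, basophil and eosinophil loci summed to 48.0 and 43.3 kb in C2, 22.4 and 23.3 kb in C13, 39.5 and 39.6 kb in C10, and 29.7 and 33.3 kb in C18. The part of these cells in the members' values was not tested. Across the 8 libraries, the loci whose profile was most like the mean profile of the 9 members were Ppox, B4galt3, Ush1g, Setd1b and Acd, with Pearson r of 0.988 to 0.985 among 18435 loci, a description in which the points share libraries and their overall peak widths.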

How the data were processed

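ATAC-seq peak lists of 8 libraries were used, 2 for each of C2, C13, C10 and C18. The authors deposited F-Seq lists with a signal per peak and HOMER lists with unlabelled score columns. Bowtie 1.0.0, HOMER 1.0 and the mm10 build are named in the submitters' processing notes. For F-Seq no version was given in the sources used here. Signal from F-Seq ranked peaks within a library only. For 21883 protein-coding loci (gene with 10 kb on each side), the bases under F-Seq peaks were scaled to equal total peak length. Loci covered in at least 2 libraries, 18454 in all, were fitted as log2(bases + 200) with limma 3.58.1 in R 4.3.3, with 4 group means, a trended prior and Benjamini-Hochberg adjustment at 0.05. The fit was run on simulated normal values with a common spread and known changes. Real loci listed at 0 and unequal spreads between populations were not simulated, so this run checks the code and not the calls. Peaks sharing at least 1 base were merged into regions. Genes named from the lists were those past the threshold, up to 4 per list and comparison. The members and lists were chosen with earlier results of these data known. Alternatives changed the caller, scaling, flank, pseudocount, filter, peak number and libraries.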

Additional observations from a re-analysis of the deposited data

How the results depend on the processing

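Peak lists carry no depth, so calls rest on 2 libraries a population. In the C2 comparison, 0 loci were called, and 145 with the 50000 strongest peaks, 1 with a 5 kb flank, 10 with none, 15 with a pseudocount of 50, 167 with no filter, 369 with peaks of both callers, 415 with peak number and 1446 without C18. Leaving out 1 library gave 0 to 606. Members called were 1 with peak number (Camp) and 4 without C18, where Camp entered through its C2 libraries alone, and 0 otherwise. Camp was listed at 0 in C13 and C10, and its peak numbers had no spread within any population. Its calls, here and below, are therefore a description. In C13, 1265 loci were called, and 4364 with HOMER, 2028 with the 50000 strongest peaks and 3630 with both callers, and 1 to 3493 leaving out 1 library. Members called there were 1 (Ltf, higher), also 1 but lower with HOMER (Lcn2), with the 50000 strongest peaks (S100a8), with both callers (S100a8) and with peak number (Camp), and 2 unscaled or with a pseudocount of 50, 0 with a 5 kb flank, 0 with no flank, 0 with no filter and 0 without C18, and 0 to 4 leaving out 1 library. In C10 against C18, 4085 loci were called, and 8926 with HOMER, 2224 with no flank, 8070 with both callers and 1232 with peak number, and 0 to 5757 leaving out 1 library. Members called there were 3, and 1 with no flank or with peak number, and 0 to 4 leaving out 1 library. Regions in 1 population numbered 8 (5 in C18, 2 in C13), and 16 with HOMER (1 in C18, 14 in C13). Member windows with peaks in C2 and C18 alone were 4, and 1 with HOMER, 2 with the 50000 strongest peaks and 4 to 5 leaving out 1 library. Signs turned in C10 against C18 for Ltf (-0.071 with the 50000 strongest peaks, -0.017 with no flank), Mmp8 (-0.48 with HOMER, -0.37 with peak number) and Mmp9 (0.55 with HOMER, 0.12 with both callers, -1.26 to 0.29 leaving out 1 library, highest without C18 replicate 1). In C13, Camp was 0 without C18 and S100a8 0.020 with HOMER. The cause was not tested. Of 299 recomputations of the 15 other differences, 39 changed sign, 0 of them called, and 7 became called. Deviations of libraries with the same replicate number correlated weakly between populations (-0.01 to 0.12). This does not show whether such libraries share a mouse or a sort. With a replicate block, 0, 1018 and 3705 loci and 0, 1 and 3 members were called in C2, C13 and C10 against C18, in that order.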
